A study of Mus musculus with 16 samples.

Results

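The 10 genes described here encode the ATPases, scaffolds and ARID-bearing or bromodomain subunits of SWI/SNF chromatin remodelling complexes. They were chosen by name, and each matched a single gene of the 18424 in the table of the prefrontal cortex (mPFC) of 16 male C57BL/6N mice. The question addressed was whether related subunits were expressed at a higher level in mice that carry a mutation in 1 of their copies of Arid1b. The mice formed 4 groups of 4 and were compared at postnatal day 120. WT-Veh mice were wild type and were nursed by dams that drank 0.2% saccharin water. WT-Flx mice were wild type and were nursed by dams given the same water with fluoxetine, a selective serotonin reuptake inhibitor, at 0.1 mg/ml. HT-Veh and HT-Flx mice were heterozygous for the Arid1b mutation (Arid1b+/-) and were nursed by dams on saccharin water alone or with fluoxetine, respectively. Dosing ran from postnatal day 3 to day 21, and all groups then drank normal water. The mutation was carried in the germline, and all heterozygotes came from the same mutant line.

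SWI/SNF complexes use ATP to slide or remove nucleosomes. The catalytic engine is either Smarca4 or Smarca2, Smarcc1 and Smarcc2 form the scaffold, and Smarcb1 and Smarce1 are shared core subunits. Arid1a and Arid1b are alternative, mutually exclusive subunits of the canonical BAF complex, whereas Arid2 and the bromodomain protein Pbrm1 define the PBAF complex. In the brain these complexes act in neural progenitors and in neurons, and loss of a single ARID1B copy is a cause of Coffin-Siris syndrome and intellectual disability.

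The mutation of the line is in exon 5 of Arid1b, and the normal sequence of that exon is shown because it is the targeted element. In the GENCODE annotation of GRCm38 it lies at chr17:5242828-5243071 on the plus strand. It was present in all 4 coding transcripts of the gene, which have 19 to 20 exons, and absent from the 3 others of its 7 transcripts. Its length of 244 bases is not a multiple of 3. The allele is described both as a deletion that spans the exon and as a TT insertion near its start, and values per gene do not tell these apart. The base sequence is that of the reference transcripts, 5′ to 3′, all in lower case because no position is singled out.

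Arid1b exon 5: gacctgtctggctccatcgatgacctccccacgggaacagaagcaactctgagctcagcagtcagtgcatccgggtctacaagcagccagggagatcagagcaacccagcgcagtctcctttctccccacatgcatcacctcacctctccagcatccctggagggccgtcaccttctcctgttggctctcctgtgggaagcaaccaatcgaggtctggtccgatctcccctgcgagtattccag

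On the same build, Arid1b spans chr17:4994332-5347656 on the plus strand and Arid1a chr4:133679008-133756769 on the minus strand. Arid2 lies at chr15:96287518-96404992, Pbrm1 at chr14:31019138-31121592, Smarca2 at chr19:26605050-26778322, Smarca4 at chr9:21616169-21704230, Smarcc1 at chr9:110117708-110240178 and Smarcc2 at chr10:128459248-128490482, all on the plus strand. Smarcb1 lies at chr10:75896769-75921617 and Smarce1 at chr11:99209047-99231017, both on the minus strand. No 2 members overlap, and each value is summed over the transcripts of its gene.

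The values below are normalized read counts per gene, which do not separate the mutant from the normal allele. Counts per gene are therefore a check of the labelled genotype, not a measure of normal Arid1b transcripts.

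Arid1b was lower in HT mice. Its normalized read counts were 1787, 2453, 2831 and 2401 in the 4 WT-Veh mice, and 2005, 1753, 1802 and 1619 in the 4 HT-Veh mice. They were 1902, 2433, 2255 and 2047 in WT-Flx mice, and 1669, 1661, 1671 and 1545 in HT-Flx mice. The fluoxetine groups did not overlap, while the vehicle groups overlapped because WT-Veh replicate 1 lay below HT-Veh replicates 1 and 3. Over both treatments the mean was 2264 ± 340 (SD, n = 8) in WT and 1715 ± 141 (SD, n = 8) in HT mice. On the log2(value + 1) scale the difference was -0.39 (HT minus WT), that is, 76.3% of the WT level with a 95% confidence interval of 68.0 to 85.7%. A two-sided exact permutation test that exchanged genotypes within treatment gave p = 0.00122 over 4900 arrangements. Within fluoxetine the difference was -0.39 with an exact permutation p of 0.0286, the smallest that 4 against 4 mice allows, and within vehicle it was -0.38 with an exact permutation p of 0.0857. In the limma model fitted across all genes, the adjusted p for Arid1b over both treatments was 0.0969, above the threshold of 0.05.

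**Figure D1:**
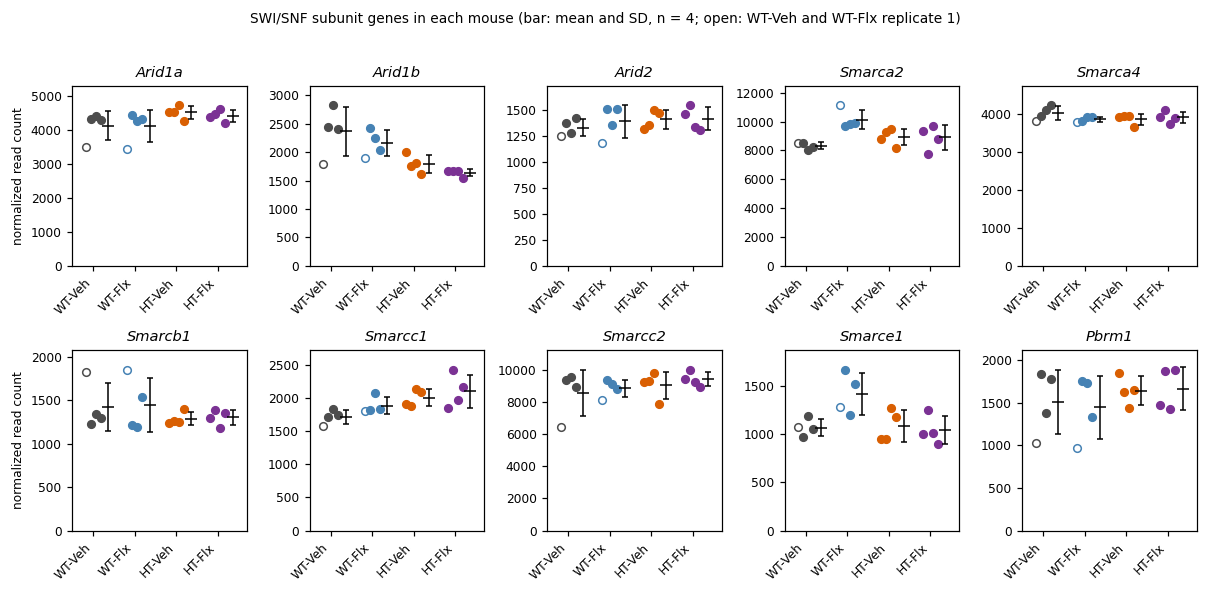
Normalized read count (linear axis from 0) of the 10 subunit genes in each of the 16 mice, by group. Each point is 1 mouse, open points are WT-Veh replicate 1 and WT-Flx replicate 1, and the bars beside the points give the mean and SD of 4 mice. The 4 HT-Flx mice sit between 1545 and 1671 for Arid1b, below all WT-Flx mice, and the open points are the lowest of their groups for Arid1a, Smarcc2 and Pbrm1 and the highest for Smarcb1.

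A pair of wild-type libraries stood apart from the rest in the balance of long and short genes. For each mouse, the median log2 deviation of 910 genes with a longest transcript of at least 8 kb was compared with that of 2873 genes of at most 2 kb. This long-minus-short score was -0.68 in WT-Veh replicate 1 and -0.67 in WT-Flx replicate 1, and ran from -0.15 to 0.21 in the other 14 mice. Both libraries were wild type, so results over genotype are given with and without them. Markers of the olfactory bulb, which lies next to the frontal cortex, also differed between mice. The mean log2(value + 1) of 10 such markers was between 7.19 and 8.89 in 5 mice (replicate 4 of HT-Veh, replicate 1 of WT-Veh and all WT-Flx mice but replicate 3), and between 3.75 and 4.99 in the other 11. The defining markers Eomes and Tbx21 reached 899 and 234 in WT-Veh replicate 1, against at most 25.3 and 12.6 in those 11 mice, 1 of which was listed at 0 for Eomes. Of the 10 markers, 9 were higher in each of these 5 mice than in any of the other 11, and Six3 was not, with 2.10 in WT-Veh replicate 1 and up to 81.1 in the other 11. By group the bulb score ran from 4.27 to 8.84 in WT-Veh, 4.99 to 8.89 in WT-Flx, 4.10 to 7.82 in HT-Veh and 3.75 to 4.88 in HT-Flx mice. WT-Veh replicate 1 (8.84) and WT-Flx replicate 1 (7.19) were thus both low in long genes and rich in bulb markers. Fits without this pair change both features at once, and the features cannot be told apart there. The mean log2 of markers of cortical glutamatergic neurons ran from 11.3 to 12.0. It was lowest in WT-Veh replicate 1, at 11.30, against 11.61 or more in the other mice. The mean log2 of 6 GABAergic neuron markers ran from 11.27 to 11.65 in WT-Veh mice, with replicate 1 the highest. It ran from 11.10 to 11.27 in HT-Veh mice, with the lowest WT-Veh mouse just above the highest HT-Veh mouse. After fluoxetine it ran from 11.11 to 11.44 in WT and from 11.09 to 11.18 in HT mice, with overlap, and its part in the genotype differences was not tested. In tissue of mixed cells, fewer cells of a type and less RNA per cell cannot be told apart.

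**Figure D2:**
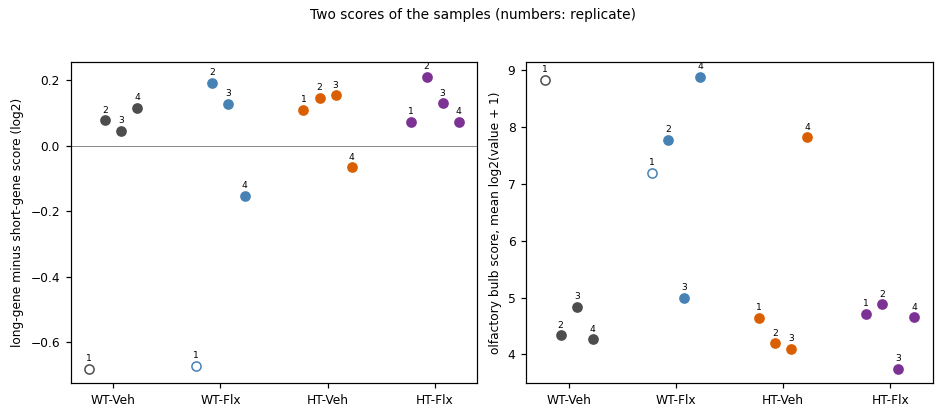
Left, the long-minus-short score (log2) of each mouse, with 0 marked by a line. Right, the olfactory bulb score, the mean log2(value + 1) of 10 markers. Points are single mice numbered by replicate and open points are WT-Veh and WT-Flx replicate 1, which lie at -0.68 and -0.67 on the left axis, apart from the other 14 mice.

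Without these 2 libraries, the Arid1b difference was -0.48 with a limma adjusted p of 0.00532, or 71.5% of the WT level (95% confidence interval 65.6 to 78.0%). The exact permutation p was then 0.000816. Adjusted for the bulb score, a covariate of the fit, the difference was also -0.48 and the limma adjusted p was 0.0314. Over all alternatives run, the limma adjusted p of Arid1b over both treatments lay between 0.000814 and 0.226 and the difference between -0.50 and -0.35. It was negative in each of the 27 fits.

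Arid1a, the closest paralog of Arid1b and its alternative in the BAF complex, did not pass the test. Its normalized read counts were 3485, 4298, 4390 and 4278 in WT-Veh mice and 4517, 4527, 4721 and 4245 in HT-Veh mice. They were 3419, 4440, 4262 and 4303 in WT-Flx mice and 4364, 4469, 4592 and 4189 in HT-Flx mice. The lowest 2 values were those of the 2 libraries low in long genes, and the other 14 mice lay between 4189 and 4721 whatever their genotype. Over all 16 mice the difference was 0.12 on the log2 scale (95% confidence interval -0.0073 to 0.25, limma adjusted p = 0.440). Without the 2 libraries it was 0.040 (95% confidence interval -0.043 to 0.12, limma adjusted p = 0.800). In percent, HT mice had 109% of the WT level over all mice (interval 99.5 to 119%), and 103% without the 2 libraries (interval 97.1 to 109%).

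Within each mouse, the ratio of Arid1b to Arid1a separated the genotypes. The ratio was 0.513, 0.571, 0.645 and 0.561 in WT-Veh mice and 0.556, 0.548, 0.529 and 0.476 in WT-Flx mice. It was 0.444, 0.387, 0.382 and 0.381 in HT-Veh mice and 0.382, 0.372, 0.364 and 0.369 in HT-Flx mice. The lowest WT value lay above the highest HT value, and WT-Veh replicate 1, which overlapped with HT mice in Arid1b alone, did not overlap with them in the ratio. The ratio was examined after the values had been seen and is given as a description.

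**Figure D3:**
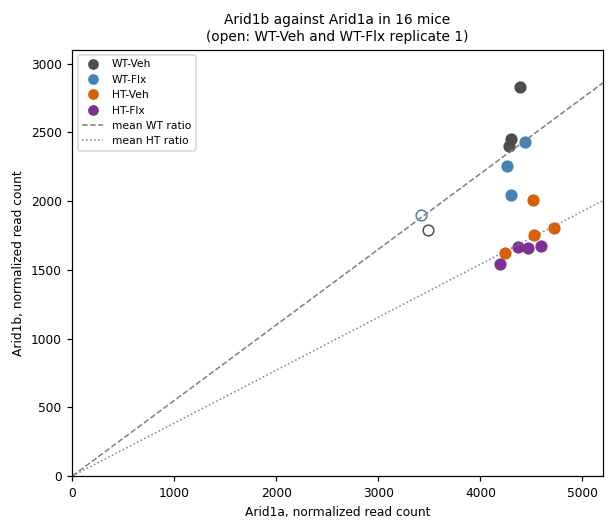
Normalized read count of Arid1b (vertical axis) against that of Arid1a (horizontal axis), both from 0, in 16 mice coloured by group, with open points for WT-Veh and WT-Flx replicate 1. The lines show the mean ratio of each genotype, 0.550 for WT and 0.385 for HT, and all 8 WT mice lie above all 8 HT mice in ratio.

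The summed level of this pair was also compared per length, since counts of genes of different lengths cannot be added directly. Per kb of merged exons, Arid1a and Arid1b together gave 538 ± 59.5 normalized reads (SD, n = 8) in WT and 524 ± 24.0 (SD, n = 8) in HT mice. Without the 2 libraries low in long genes, the sum in WT was 568 ± 24.3 (SD, n = 6). Arid1b made up 33.3 ± 2.0% of this sum in WT and 25.9 ± 1.2% in HT mice (SD, n = 8 each). Both the sum and the share depend on the length used. Over all 16 mice Arid1a was at 373 and Arid1b at 158 per kb of merged exons, against 523 and 176 per kb of the longest transcript. The share per kb of merged exons ran from 30.2 to 37.0% in WT and from 24.9 to 28.8% in HT mice. It rises with the ratio of Arid1b to Arid1a, so the lack of overlap follows from that of the ratio and is not a further result.

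The PBAF subunits did not pass the test in any comparison. Arid2, the ARID subunit of PBAF, ranged from 1184 to 1518 in WT and from 1312 to 1552 in HT mice, with a difference of 0.058 over both treatments (95% confidence interval -0.072 to 0.19, limma adjusted p = 0.707), and 0.0061 without the 2 libraries low in long genes (interval -0.11 to 0.13, limma adjusted p = 0.987). Leaving out WT-Flx replicate 1 alone, the lowest Arid2 value at 1184, gave 0.026. Pbrm1, its bromodomain partner, was at 1031 in WT-Veh replicate 1 and 973 in WT-Flx replicate 1, and ranged from 1328 to 1886 in the other mice. The Pbrm1 difference was 0.19 over all mice (95% confidence interval -0.081 to 0.47, limma adjusted p = 0.542) and 0.020 without those 2 libraries (interval -0.18 to 0.22). Both genes thus overlapped between genotypes, and both differences were smaller without those 2 wild-type libraries. With the bulb score as a covariate and all mice kept, the differences were 0.072 for Arid2 and 0.081 for Pbrm1.

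Neither of the ATPase genes passed the test for genotype. Smarca4, one of the alternative catalytic subunits, had the narrowest range of the 10 genes in proportion to its level, from 3648 to 4234 over all mice. Its genotype difference was -0.019 (95% confidence interval -0.11 to 0.069, limma adjusted p = 0.868), and -0.035 without the 2 libraries low in long genes. Smarca2, the alternative ATPase, had a genotype difference of -0.045 (95% confidence interval -0.18 to 0.088, limma adjusted p = 0.783), and -0.016 without those libraries. Its treatment groups in WT mice did not overlap. Its counts were 8521, 8492, 8035 and 8246 in WT-Veh mice, and 11144, 9659, 9848 and 9880 in WT-Flx mice. In HT mice the groups overlapped, at 8775, 9262, 9505 and 8193 after vehicle and 9312, 7759, 9705 and 8810 after fluoxetine.

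Among the scaffold and core subunits, Smarcc1 had the most positive test statistic of the 9 other members. Smarcc1, a scaffold subunit, was at 1586, 1714, 1834 and 1749 in WT-Veh mice and at 1919, 1890, 2144 and 2096 in HT-Veh mice, with no overlap. In WT-Flx mice it was at 1805, 1820, 2084 and 1842, and in HT-Flx mice at 1858, 2432, 1978 and 2167, where the ranges overlapped. Over both treatments the difference was 0.19 (95% confidence interval 0.063 to 0.32, unadjusted p = 0.00553 from limma), and the limma adjusted p of 0.298 missed the threshold. Leaving out the same 2 libraries, the Smarcc1 difference was 0.16 (interval 0.031 to 0.29, limma adjusted p = 0.529). Without the 5 mice rich in bulb markers it was 0.11 (interval -0.051 to 0.28). Smarcc1 was above 0 in all 27 fits and below the adjusted threshold in none, with limma adjusted p between 0.192 and 0.891.

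Smarcc2, the other scaffold subunit and the member with the highest level per kb, did not pass the test for genotype either. Its counts were 6475 in WT-Veh replicate 1 and 8144 in WT-Flx replicate 1, and lay between 7869 and 10021 in the other mice. The Smarcc2 difference was 0.090 over all mice (95% confidence interval -0.065 to 0.24, limma adjusted p = 0.615) and 0.0046 without the 2 libraries (interval -0.10 to 0.11). Smarcb1, a core subunit found in BAF and PBAF complexes, went the other way in the same libraries, at 1828 and 1854 against 1184 to 1535 in the other 14 mice. Its difference was -0.13 over all mice (95% confidence interval -0.32 to 0.066, limma adjusted p = 0.566) and -0.0034 without the 2 libraries (interval -0.14 to 0.13).

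Smarce1, a core subunit with an HMG domain, had counts of 1067, 963, 1187 and 1047 in WT-Veh mice and 1277, 1664, 1193 and 1521 in WT-Flx mice, with no overlap. They were 948, 945, 1272 and 1177 in HT-Veh mice and 1000, 1242, 1008 and 900 in HT-Flx mice. The WT-Flx group thus held the highest Smarce1 values. The genotype difference was -0.21 over both treatments (95% confidence interval -0.43 to 0.0037, limma adjusted p = 0.428). Between HT-Flx and WT-Flx mice it was -0.44 (interval -0.73 to -0.16, limma adjusted p = 0.335), and adjusted for the bulb score it was -0.15 (interval -0.59 to 0.28). The bulb score was 4.99 to 8.89 in WT-Flx and 3.75 to 4.88 in HT-Flx mice, without overlap. Genotype and bulb score therefore cannot be told apart in this comparison, with or without the covariate. Over both treatments the Smarce1 difference was -0.11 adjusted for the bulb score (interval -0.33 to 0.10, limma adjusted p = 0.963) and -0.089 without the 5 mice rich in bulb markers (interval -0.32 to 0.14, limma adjusted p = 0.928). Without the 2 libraries low in long genes it was -0.23 (interval -0.47 to 0.0056, limma adjusted p = 0.621).

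**Figure D4:**
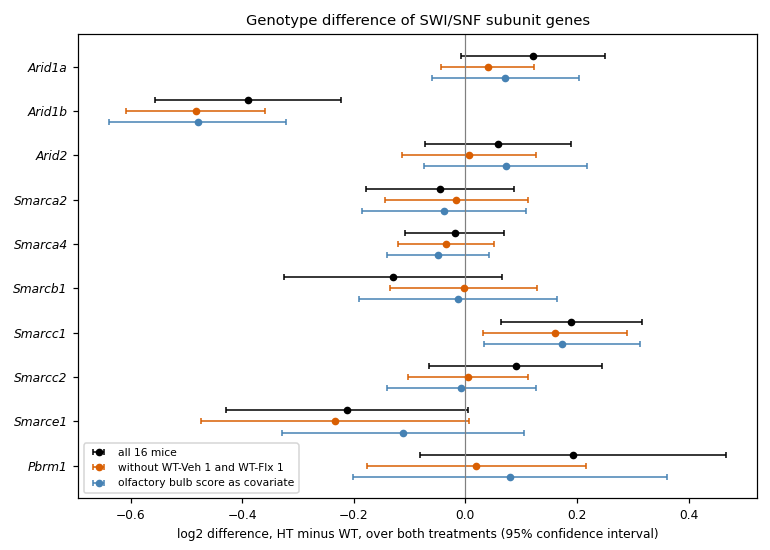
Log2 difference (HT minus WT, over both treatments) of the 10 genes with its 95% confidence interval, in all 16 mice, without WT-Veh replicate 1 and WT-Flx replicate 1, and adjusted for the bulb score. The interval of Arid1b lies below 0 and that of Smarcc1 above 0 in all 3 fits, while Arid1a, Smarcc2, Pbrm1 and Smarcb1 move towards 0 without the 2 libraries.

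Counted over the 10 genes, none passed an adjusted p of 0.05 (limma, Benjamini-Hochberg) over both treatments, against 0.0398% of the 17567 genes tested. At an unadjusted p under 0.05, 2 members were counted (Arid1b and Smarcc1), against a background of 11.9%. Of the members, 5 were above 0 and 5 below, with a median of 0.020 beside 0.0044 for all genes. Without the 2 libraries low in long genes the median of the members was 0.00062, and Arid1b passed the adjusted threshold.

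In vehicle-treated mice no member passed the adjusted threshold (background 0.0178% of 16832 genes). An unadjusted p under 0.05 was found for 2 of them, Arid1b with a log2 difference of -0.38 and Smarcc1 with 0.23 (background 4.88%). Smarcc1 was the member whose vehicle groups did not overlap, against 3.84% of all genes tested. Without WT-Veh replicate 1 the vehicle difference of Arid1b was -0.51 (limma adjusted p = 0.105), that of Smarcc1 0.19 (limma adjusted p = 0.510) and that of Arid1a 0.058. In fluoxetine-treated mice none passed the adjusted threshold (background 0.0417% of 16788 genes). Arid1b, at -0.39, and Smarce1, at -0.44, had an unadjusted p under 0.05 (background 10.4%), and Arid1b was the member whose groups did not overlap (background 5.83%). Arid1a had differences of 0.14 in vehicle-treated and 0.11 in fluoxetine-treated mice, with intervals of -0.048 to 0.32 and -0.10 to 0.32.

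Early fluoxetine was compared within each genotype to see whether the levels of these subunits shifted with treatment. The drug was given through the dams, so differences between dams or litters cannot be told apart from treatment in these comparisons. In HT mice no member passed the adjusted threshold (background 0% of 16814 genes), none had an unadjusted p under 0.05 (background 3.07%), and all members overlapped between HT-Flx and HT-Veh mice (background of groups without overlap 1.99%). The differences lay between -0.13 for Arid1b and 0.062 for Smarcc1, both HT-Flx minus HT-Veh. The Arid1b interval was -0.30 to 0.037, so a level of 81.4 to 103% of that in HT-Veh mice was compatible with these data.

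In wild-type mice no member passed the adjusted threshold either (background 0% of 16833 genes). Smarca2, with a difference of 0.28 (95% confidence interval 0.11 to 0.45), and Smarce1, with 0.40 (interval 0.13 to 0.67), had an unadjusted p under 0.05 (background 4.2%) and groups without overlap (background 2.89%). Their limma adjusted p was 1.00 each over all mice. Without the 2 libraries low in long genes the differences were 0.25 and 0.44, with limma adjusted p of 0.163 and 0.197, and with the bulb score as a covariate they were 0.27 and 0.33. The direction of both was the same in each of the 19 fits.

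The genotype by fluoxetine interaction asks whether the treatment difference itself differed between HT and WT mice. No member passed the adjusted threshold (background 0% of 17567 genes), and 2 had an unadjusted p under 0.05 (background 4.29%). These were Smarca2, with an interaction of -0.29 (95% confidence interval -0.52 to -0.058, limma adjusted p = 0.998), and Smarce1, with -0.46 (interval -0.84 to -0.079, limma adjusted p = 0.998). The fluoxetine differences were 0.28 in WT and -0.0087 in HT mice for Smarca2, and 0.40 in WT and -0.062 in HT mice for Smarce1. The interactions without these libraries were -0.26 and -0.51, with limma adjusted p of 0.386 and 0.356. The WT-Veh and WT-Flx mice enter the genotype comparisons as well, so these values and those above are not independent. For Arid1b the interaction was -0.0099 (interval -0.36 to 0.34).

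Levels of the members relative to each other were taken per kb of merged exons. Smarcc2 was at 1619 ± 156 normalized reads per kb (SD, n = 16), above every other member in each of the 16 mice. Smarca2 at 636 ± 61.7 and Smarca4 at 605 ± 22.0 per kb followed, and their ranges overlapped. Arid1a at 373 ± 30.8 per kb was above Smarcc1 at 247 ± 26.7 in all 16 mice, although their ranges over the mice overlapped. Pbrm1 at 177 ± 32.6, Smarce1 at 173 ± 32.1, Smarcb1 at 172 ± 26.0 and Arid1b at 158 ± 30.1 per kb differed by less than their spread. Arid2 was lowest at 129 ± 10.1 per kb, and its range overlapped with that of Arid1b. By group, the WT means of Arid1b were 188 per kb after vehicle and 171 after fluoxetine, against 358 in both for Arid1a. The HT means of Arid1b were 142 and 130 per kb, against 392 and 384 for Arid1a.

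**Figure D5:**
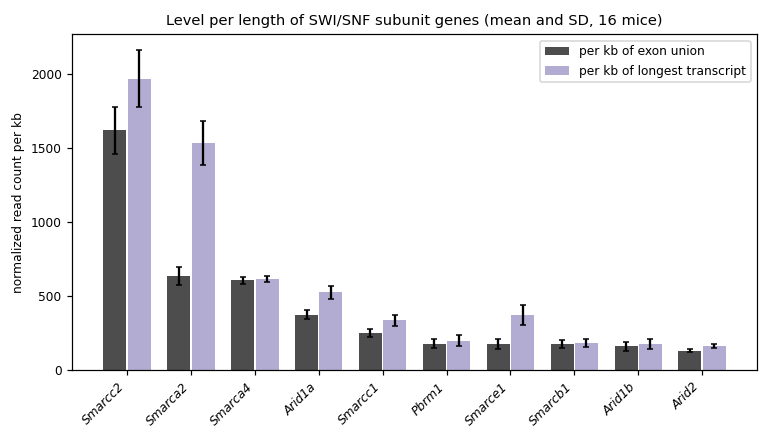
Normalized read count per kb (linear axis from 0; mean and SD over 16 mice) of the 10 genes, divided by the length of the merged exons or by that of the longest transcript. Smarcc2 is highest on both scales, and Smarca2 stands at 636 per kb of merged exons and 1532 per kb of the longest transcript.

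The order depended on the length used for 2 genes above all. Both lengths were taken over all annotated transcripts of a gene, coding or not. For Smarcb1 they were 7930 and 7441 bases, with 2 of its 6 transcripts coding. Whether the transcripts present in this tissue have such lengths was not tested, so the place of Smarcb1 depends on the annotation on both scales. Per kb of the longest transcript, Smarca2 was at 1532 ± 149 (SD, n = 16), above Smarca4 at 614 ± 22.4 in all 16 mice, and Smarce1 at 369 ± 68.6 stood above Pbrm1 at 198 ± 36.4. Averaged over all 16 mice, including the heterozygotes, Arid1b and Arid2 had the lowest levels on both scales. In WT-Veh mice alone, Arid1b at 188 per kb of merged exons was above the means of Smarcb1 (180), Pbrm1 (170) and Smarce1 (160). In WT-Flx mice, at 171, it was above Pbrm1 (163) and below Smarcb1 (183) and Smarce1 (213).

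The other paralog pairs were summed in the same way. Smarca2 made up 51.4 ± 3.6% of the Smarca2 and Smarca4 sum per kb of merged exons in WT mice and 50.9 ± 2.2% in HT mice (SD, n = 8 each). This share depends on the length used. Per kb of the longest transcript, Smarca2 was at 1532 and Smarca4 at 614 over all 16 mice. In WT-Flx mice the share was 54.3 ± 1.9%, and in WT-Veh mice 48.4 ± 1.7% (SD, n = 4 each). Smarcc1 made up 12.9 ± 1.2% of the Smarcc1 and Smarcc2 sum per kb in WT mice and 13.7 ± 1.3% in HT mice (SD, n = 8 each), and these ranges overlapped. Arid1b over Arid1a, the pair that holds the mutated gene, was the one whose share did not overlap between genotypes, as its ratio above already showed.

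Further genes of the same machinery were read from 3 lists. Of 20 accessory SWI/SNF subunits, 8 were above and 12 below 0 in HT against WT mice over both treatments, with a median of -0.039, beside 51.1% above 0 and a median of 0.0044 for all genes. None passed the adjusted threshold in any of the 6 comparisons, and 4 had an unadjusted p under 0.05 over both treatments, 1 above and 3 below 0 (11.9% of all genes had one). The smallest p belonged to Bcl11a, a zinc-finger transcription factor found in neural BAF complexes, with means of 2916 and 3192 in WT-Veh and WT-Flx and 2529 and 2583 in HT-Veh and HT-Flx mice. Its difference was -0.25 (95% confidence interval -0.39 to -0.11, limma adjusted p = 0.244), and -0.16 (interval -0.28 to -0.041) with the bulb score as a covariate. Bcl7a, a small BAF subunit, had a difference of 0.20 (interval 0.083 to 0.32, limma adjusted p = 0.268), with means of 2821 and 2732 in WT-Veh and WT-Flx and 3120 and 3276 in HT-Veh and HT-Flx mice.

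Of 11 other genes with an ARID domain, 9 were above 0 over both treatments (median 0.079), but without the 2 libraries low in long genes 2 of the 10 then tested were above 0 (median -0.018). None passed the adjusted threshold in any comparison, and none had an unadjusted p under 0.05. Arid5b, a DNA-binding transcriptional coregulator, and Kdm5b, a histone H3 lysine demethylase, had the smallest p values, with differences of 0.16 (interval -0.081 to 0.41) and 0.093 (interval -0.062 to 0.25). These were -0.0052 and 0.032 without the 2 libraries. Of 17 ATPases of other remodelling families, 12 were above 0 (median 0.033), and 6 without the 2 libraries (median -0.036), again with none past the adjusted threshold. Of the 17, 1 had an unadjusted p under 0.05 over both treatments (background 11.9%). Between HT-Flx and WT-Flx mice 4 of the 17 had one, and 3 of the 20 accessory subunits (background 10.4%). Atrx, a chromatin remodeller of heterochromatin, had a difference of 0.39 (interval 0.074 to 0.71, limma adjusted p = 0.387), and 0.17 (interval -0.013 to 0.35) without the 2 libraries. Chd5, a neuronal remodeller, had a difference of 0.12 (interval -0.014 to 0.25, limma adjusted p = 0.454).

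Genes with a pattern like that of Arid1b or Arid1a were sought by Pearson's r of log2 values over the 16 mice, among genes with a mean of at least 100. Those closest to Arid1b were Ublcp1 (r = 0.82, Spearman's rho = 0.84), Map2k7 (r = 0.76, rho = 0.72) and Gatad2a (r = 0.71, rho = 0.81). Leaving out the 2 mice with the most extreme Arid1b values, r was 0.72, 0.67 and 0.76. With the mean of each group subtracted, r with Arid1b was 0.49, 0.65 and 0.60. Those closest to Arid1a were Map2 (r = 0.95, rho = 0.79), Akap13 (r = 0.95, rho = 0.83) and Gm47738 (r = 0.95, rho = 0.72). For these 3 the 2 most extreme mice were the libraries low in long genes, and without them r was 0.70, 0.58 and 0.61. The genes were picked for their r, share the libraries with Arid1b and Arid1a, and are given as a description.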

How the data were processed

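RNA-seq of the mPFC of 16 male mice was used. The authors prepared stranded poly-A libraries from total RNA, quantified paired-end reads with Salmon 1.1.0 (GRCm38, GC bias correction), imported gene-level estimates with tximport and normalized them with DESeq2 1.30.1. The deposited signal is a normalized read count per gene. The values were not whole, and at most 46.8% of values under 15 lay within 0.05 of whole multiples of a common step, so reads were not recovered, the sequencing depth is unknown and no interval or floor that needs it is given. Normalized totals were 92.8 to 104% of their mean, and all value columns were used.

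Groups came from the sample titles, with 4 mice each. No source states litters, so p-values measure the spread between these samples. Mice were fitted as independent, although fluoxetine was given through the dams and pups of a dam share it. No columns were identical. Of 18424 genes, 18411 had a symbol. Positions and lengths were from GENCODE for GRCm38. Values of at least 10 in at least 4 samples were kept, log2(value + 1) was fitted in limma 3.58.1 (R 4.3.3) with a mean-variance trend, and p-values were adjusted by Benjamini-Hochberg over all genes tested. Differences on this scale understate changes of low genes. Genotype over both treatments had treatment as a term; pairwise fits used the groups compared; the interaction used all 16 mice. Arid1b was also tested by an exact two-sided permutation test. The script was tested on simulated data. Alternatives were other pseudocounts (8, 0.1), filters, an upper-quartile scaling, a bulb score, a replicate block, a fit of all groups and leaving out each mouse; those on the long-minus-short score and the 5 bulb-rich mice were chosen after seeing the data. Correlations of same-numbered mice were computed but not compared with those of other pairs, so pairing by replicate number was not tested. The members and lists were chosen with earlier results of these data known. Named genes were all 10 members, the 2 smallest p-values per further list (no listed gene passed the adjusted threshold), and the 3 closest genes by r.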

Additional observations from a re-analysis of the deposited data

Results flagged for a closer look

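In groups of 4 mice, a value was picked out when its gap to the nearest other mouse exceeded 0.829 of the group's range (Dixon's 95% limit). Of 40 gene-by-group sets of the 10 members, 6 held such a value. Chance alone gives about 1 in 20 for independent sets. These sets share the same mice and are not independent, so no excess is read from the count. Arid1a was at 3485 in WT-Veh replicate 1, against 4278 to 4390 in the rest of its group. This mouse also had the lowest long-minus-short score of all (-0.68). Smarca2 was at 11144 in WT-Flx replicate 1, against 9659 to 9880 in the rest, and that mouse had the second lowest score (-0.67). Without WT-Flx replicate 1, the lowest remaining WT-Flx value of Smarca2 still lay above the highest WT-Veh value of 8521.

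Arid1b was at 1545 in HT-Flx replicate 4, against 1661 to 1671 in its group, a tight group in which a modest gap suffices. Smarca4 at 3648, against 3917 to 3949, and Smarcb1 at 1402, against 1238 to 1266, both came from HT-Veh replicate 4, the HT mouse with the highest olfactory bulb score (7.82). The mean log2 of striatal markers was also highest of all mice in HT-Veh replicate 4 (10.6). In the other mice it ran from 7.81 to 9.90, and it was not a covariate of any fit. Smarcc1 was at 2084 in WT-Flx replicate 3, against 1805 to 1842. No member had an interaction of genotype and fluoxetine past the adjusted threshold.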

How the results depend on the processing

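Of 1210 alternative values of the 60 member differences, 1107 kept their direction and side of the adjusted threshold, 6 were newly past it and 97 turned sign. The 6 are all Arid1b, over both treatments with the bulb score (-0.48), with the long-minus-short score (-0.50), without the 2 libraries low in long genes (-0.48), without the 5 bulb-rich mice (-0.46, leaving 1 WT-Flx mouse, assumed to vary like the other groups) and without WT-Veh replicate 1 (-0.45, limma adjusted p = 0.0101), and under vehicle with the long-minus-short score (-0.52, limma adjusted p = 0.0373). In each of these fits the number of members past the threshold was 1 instead of 0.

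Over both treatments 7 genes passed in all; this was 2 with the long-minus-short score, 4 without the 5 bulb-rich mice, and 1 to 13 leaving out each mouse, with 0 to 1 members. Under vehicle 3 passed, against 14 with the bulb score, 0 with the replicate block, 0 in the fit of all groups, 11 without the 2 bulb-rich vehicle mice, 19 with the long-minus-short score and 0 to 2 leaving out each mouse. Under fluoxetine 7 passed, against 4 with a pseudocount of 0.1, 0 at a mean of at least 100, 0 with the bulb score, 4 in the fit of all groups, 3 with the long-minus-short score and 0 to 23 leaving out each mouse. Between WT-Flx and WT-Veh 0 passed (707 at an unadjusted p under 0.05), against 1 with the bulb score, 8 with the long-minus-short score, 8 without the 2 libraries and 0 to 4 leaving out each mouse. The cause was not tested.

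None of the differences that turned sign passed the adjusted threshold. Over both treatments they were Smarcc2 with the bulb score (-0.0077); Smarcb1 (0.024), Smarcc2 (-0.016) and Pbrm1 (-0.012) with the long-minus-short score; and Smarca2 (0.047), Smarcb1 (0.016) and Pbrm1 (-0.035) without the 5 bulb-rich mice. Under vehicle they were Smarce1 (-0.024) and Pbrm1 (-0.017) without the 2 bulb-rich mice, and Smarcb1 (0.0028), Smarcc2 (-0.051) and Pbrm1 (-0.0061) with the long-minus-short score. Under fluoxetine they were Smarca4 with a common upper quartile (-0.0057), Smarcb1 with the bulb score (0.10), and Arid2 (-0.057), Smarcb1 (0.048) and Pbrm1 (-0.022) with the long-minus-short score. Between HT-Flx and HT-Veh they were Arid2 (-0.015) and Pbrm1 (-0.0052) with a common upper quartile, and Arid2 (-0.0015) and Smarca4 (-0.0012) with the long-minus-short score. Between WT-Flx and WT-Veh they were Arid1a (0.065), Arid1b (0.0095), Smarcb1 (-0.15) and Pbrm1 (0.16) with the bulb score, Arid1a with the long-minus-short score (0.0025), and Arid1a (0.0041) and Smarcc2 (-0.030) without the 2 libraries. For the interaction they were Smarcb1 (0.20) and Pbrm1 (-0.11) with the bulb score, Smarcb1 with the long-minus-short score (0.034), and Arid1b (0.060) and Smarcc2 (0.089) without the 2 libraries.

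Leaving out each mouse in turn, the ranges that crossed 0 were as follows. Under vehicle, Smarcc2 ran from -0.040 to 0.16, Smarce1 from -0.063 to 0.080 and Pbrm1 from -0.012 to 0.27. Under fluoxetine, Arid2 ran from -0.046 to 0.074 and Smarca4 from -0.0032 to 0.040. Between HT-Flx and HT-Veh, Arid2 ran from -0.042 to 0.039, Smarca2 from -0.052 to 0.055, Smarca4 from -0.011 to 0.038, Smarcb1 from -0.012 to 0.065, Smarcc1 from -0.0089 to 0.12, Smarcc2 from -0.0073 to 0.10, Smarce1 from -0.15 to 0.018 and Pbrm1 from -0.053 to 0.083. Between WT-Flx and WT-Veh, Arid1a ran from -0.081 to 0.082, Smarcb1 from -0.11 to 0.15, Smarcc2 from -0.070 to 0.12 and Pbrm1 from -0.23 to 0.12. For the interaction, Arid1a ran from -0.11 to 0.049, Arid1b from -0.10 to 0.12, Smarcb1 from -0.13 to 0.12, Smarcc2 from -0.068 to 0.13 and Pbrm1 from -0.11 to 0.24.

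The Arid1b permutation result kept its direction and its side of 0.05 in every alternative run, from -0.44 to -0.34 leaving out each mouse. Mean correlations of same-numbered mice ran from 0.011 to 0.13, and a single pair of WT-Veh and WT-Flx mice reached 0.31. They were not compared with pairs of other numbers, so they cannot exclude a pairing. With the replicate block, exact sign flips gave p = 0.0156 for Arid1b at -0.39, and the limma fits with the block called no member. Of the 10 levels per kb, 6 moved by more than 1 SD between the 2 lengths. The number of mice and the unknown depth limit what could be detected.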
